A study of Caenorhabditis elegans with 15 samples.

Results

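The genes described here are the *oac* genes of *Caenorhabditis elegans*, named as O-acyltransferase homologs, together with 4 genes named otherwise, *nrf-6*, *ndg-4*, *rhy-1* and *bus-1*. Members were taken by name from the deposited table, which gave 41 of its 16259 genes, 37 of them named *oac*. The family was picked because *oac-34* is among the genes that differ most between the mutants of the study. The values of *oac-34*, and every difference between the mutants, are therefore given as a description without a test or calls. The annotation used here names 56 *oac* genes, and the 19 without a row in the table were not analysed here.

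The study compared whole animals at the L2 larval stage of 3 genotypes, with 5 poly-A RNA libraries each: wild type (N2), *sma-3* mutants and *sma-6* mutants. All animals were fed *E. coli* on plates at 20 degrees Celsius. The label of *sma-3* replicate 9 carries the added letters "rep" and does not say what they mean. The labels name no allele, do not say how many strains or isolates stand behind a mutant group, and do not say whether the libraries came from separate cultures. The p-values below therefore measure the spread between these libraries, which may be technical.

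Acyltransferase-3 proteins are membrane proteins with many transmembrane segments, and the better-studied relatives in other organisms move acyl groups onto sugars and other molecules. Most *oac* genes are named from sequence similarity alone. In *C. elegans*, loss of *nrf-6* or *ndg-4* makes the nose resistant to contraction by fluoxetine, *rhy-1* restrains the hypoxia-inducible factor HIF-1, and *bus-1* mutants resist adhesion of the bacterium *Microbacterium nematophilum* to the tail. The mutated genes belong to the DBL-1 pathway, a BMP-like pathway that sets body size: *sma-6* encodes a type I receptor and *sma-3* a Smad protein.

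Library totals ran from 16467702 to 24202873 counts in 14 libraries and reached 48292350 in wild-type replicate 2. Levels are CPM, counts scaled to a fixed library total, after TMM normalization, which scales libraries for differences in RNA composition. The *sma-3* transcript stood at 8.86 to 10.8 CPM in *sma-3* mutants and at 22.6 to 32.5 CPM in the wild type, and the *sma-6* transcript at 8.83 to 9.75 CPM in *sma-6* mutants and at 37.2 to 47.7 CPM in the wild type. Wild-type replicate 5 stood apart: by root mean square log2 difference it lay farther from its own group (0.377 on average) than from *sma-3* mutants (0.359), while the remaining wild-type libraries lay at 0.270 to 0.317 from their group and at 0.351 to 0.382 from *sma-3*. Wild-type replicate 3 held more RNA of the adult yolk genes *vit-2*, *vit-5* and *vit-6*, at 195 CPM summed, against 0.563 to 2.78 in the other wild-type libraries and at most 17.6 in any mutant library. Summed body wall muscle markers (*myo-3* and *unc-54*) were at 5796 to 7532 CPM in the wild type, 6842 to 7720 in *sma-3* and 8139 to 9749 in *sma-6*, and summed intestine markers (*ges-1*, *elt-2* and *elt-7*) at 99.4 to 108, 80.0 to 94.0 and 82.1 to 91.8. The muscle sum was mostly *unc-54* (wild-type mean 5811 CPM, against 995 for *myo-3*), and these genes did not move together. *unc-54* rose only in *sma-6* mutants (log2 0.43, edgeR adjusted p = 0.00382), with 0.04 for *sma-3*. *myo-3* rose only in *sma-3* mutants (log2 0.33, edgeR adjusted p = 0.00942), with 0.05 for *sma-6*. Summed germline markers (*glp-1*, *pgl-1* and *glh-1*) were at 153 to 251 CPM in the wild type, lowest in replicate 5, at 166 to 188 in *sma-3* and at 206 to 340 in *sma-6*, so the mutants did not overlap. In whole animals, fewer cells of a type and less RNA per cell cannot be told apart, and the part of these shifts in the results was not tested.

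In the wild type, a single member supplied much of the family's RNA. *oac-46* (chromosome II, 8848843 to 8852096, minus strand, WBcel235) had 62.0 ± 8.35 CPM per kb of exon (SD, n = 5). It overlaps *agxt-1* on the other strand, and the strand setting of the counting is not given in the sources used here, so reads of the pair may not be fully separated. It was followed by *oac-14* at 15 ± 2.61, *nrf-6* at 11.6 ± 1.63, *ndg-4* at 10.4 ± 1.57 and *oac-1* at 9.93 ± 3.51. Each neighbouring pair from *nrf-6* down to *rhy-1*, at 6.87 ± 1.95 CPM per kb, lay closer than the larger SD of the pair. The order within each such pair is therefore not resolved. *oac-34* ranked 11 of 41 at 1.85 ± 0.852 CPM per kb. The 13 members under the minimum for testing (*oac-3*, *oac-8*, *oac-10*, *oac-13*, *oac-16*, *oac-21*, *oac-24*, *oac-27*, *oac-36*, *oac-37*, *oac-50*, *oac-55* and *oac-56*) never exceeded 21 counts in a library, and their highest mean in any genotype was 0.434 CPM. Differences in these 13 genes were not tested in the fit used below. A fit without the minimum called the same members against the wild type, so it added no call among the 13. At such low counts this says little about them.

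**Figure D1:**
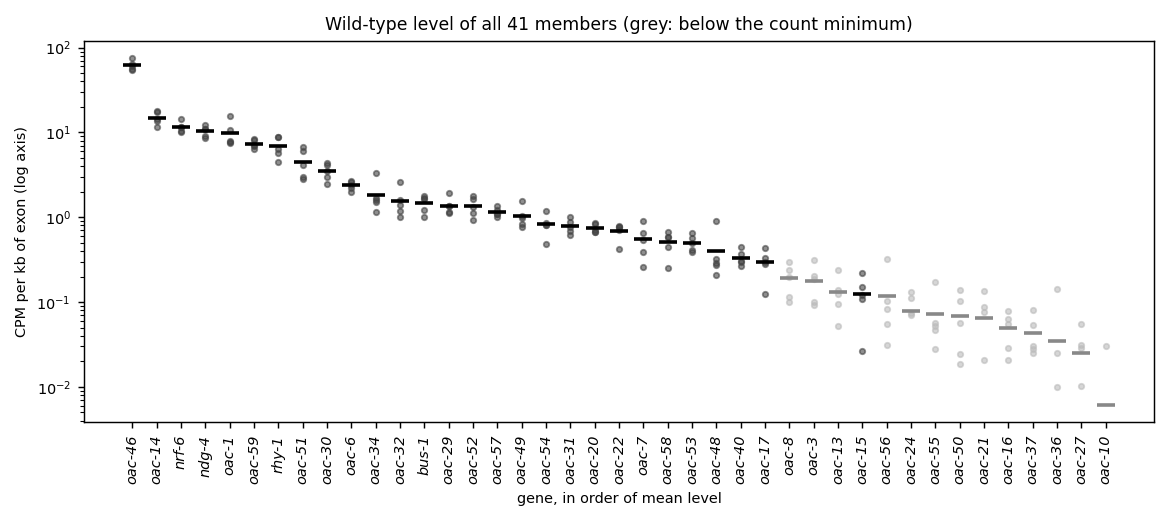
Wild-type level of the 41 members in CPM per kb of exon on a log axis, in order of the mean; points are the 5 libraries, bars their mean, grey marks members below the count minimum, and libraries with no count are not drawn. *oac-46* stands above all others at a mean of 62.0, and the lowest member, *oac-10*, is at 0.00612.

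*oac-46* itself differed little between genotypes. Its levels were 131, 134, 145, 154 and 181 CPM in wild-type replicates 1 to 5. In *sma-3* replicates 2, 3, 4, 5 and 9 they were 152, 143, 161, 174 and 173 CPM, and in *sma-6* replicates 1, 2, 3, 4 and 6 they were 141, 146, 150, 147 and 136 CPM. The 3 groups overlapped, with log2 fold changes of 0.11 (SE 0.08, edgeR adjusted p = 0.396) in *sma-3* and -0.05 (adjusted p = 0.782) in *sma-6*. The gene made up 37.3 to 45.4% of the family's summed CPM. That sum was 344 ± 35.3 CPM in the wild type, 383 ± 33.4 in *sma-3* and 370 ± 7.93 in *sma-6* (SD, n = 5 each).

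*oac-34* (chromosome I, 11342085 to 11347288, minus strand) was high in *sma-3* mutants and low in *sma-6* mutants. It had 3.43, 3.07, 2.30, 3.22 and 6.74 CPM in wild-type replicates 1 to 5. In *sma-3* mutants, in the order of replicates kept throughout (2, 3, 4, 5 and 9), it had 10, 7.72, 11.7, 8.21 and 11 CPM. In *sma-6* mutants, in the order 1, 2, 3, 4 and 6, it had 3.75, 2.08, 1.89, 2.29 and 2.27 CPM. Every *sma-3* library lay above every wild-type library, whereas the *sma-6* and wild-type libraries overlapped. The log2 fold change was 1.40 (SE 0.23) in *sma-3* and -0.60 (SE 0.25) in *sma-6*, and *sma-6* minus *sma-3* was -1.99, which ranked 29 by size among the 13720 genes tested. Wild-type replicate 5 was 2.24 times the mean of the other wild-type libraries. Without that library the log2 fold changes were 1.70 in *sma-3* and -0.30 in *sma-6*.

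Members were next counted against the wild type, leaving out *oac-34*. Of the other 27 members tested, 6 (22.2%) passed the threshold in *sma-3* mutants (edgeR quasi-likelihood test, adjusted p under 0.05 over all genes), where 14.6% of all genes tested passed. The 5 that were higher, *oac-30*, *oac-51*, *oac-15*, *oac-58* and *oac-1*, are 18.5% of the members, against 4.40% of all genes, and *nrf-6* alone was lower, against 10.2% of all genes. *oac-15* reached the minimum for testing only through the *sma-3* libraries and so had to differ; without it the count was 5 of 26 members (19.2%), 4 of them higher. The count of 6 fell to 3 (11.1%) without wild-type replicate 2 or without wild-type replicate 4, when *oac-30*, *oac-51* and *oac-58* were called and 8.39% and 9.68% of all genes passed. Without *sma-3* replicate 9 it was 4 (14.8%), where 9.08% of all genes passed. The remaining 21 members had log2 fold changes from -0.31 to 0.80 and did not pass, and the median over the 27 was 0.19, against 0.01 over all genes. Libraries of *sma-3* and the wild type did not overlap for 4 members, all higher in *sma-3*, where 3.34% of all genes tested were higher without overlap; without *oac-15*, whose separation follows from the minimum, this was so for 3 of 26. Over all genes, TMM scaling gave 603 higher and 1394 lower. Scaling by library totals instead gave 1414 higher and 731 lower, with the median over all genes at 0.09, and the same 5 members remained higher.

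**Figure D2:**
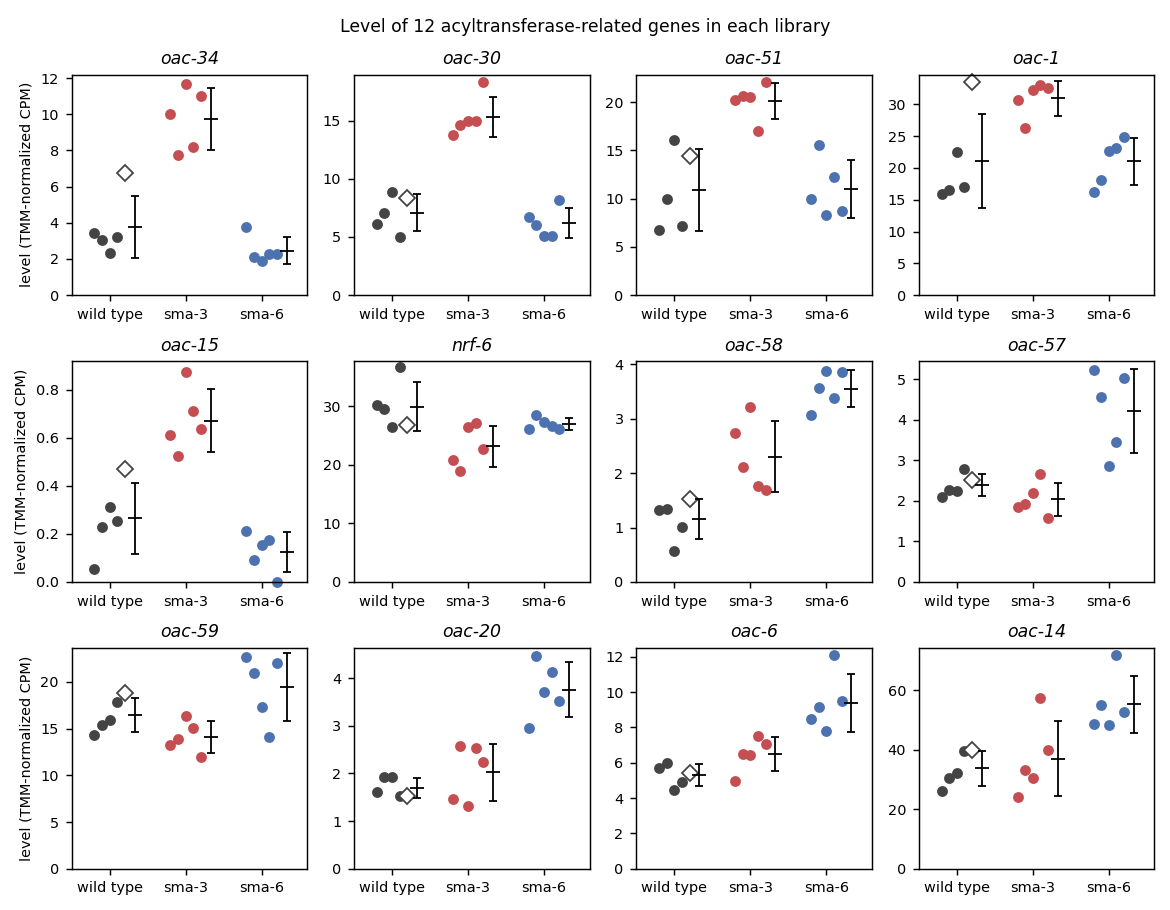
Level of 12 members in each library in TMM-normalized CPM, on axes from 0; points are libraries in order of replicate number, the open diamond is wild-type replicate 5, and bars give the mean and SD of 5. *oac-34*, *oac-30*, *oac-51* and *oac-15* are highest in *sma-3*, *oac-20*, *oac-6* and *oac-57* in *sma-6*, and *oac-58* is above the wild type in both.

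*oac-30* (chromosome II, 1262987 to 1266890, minus strand) had the largest log2 difference between the mutants after *oac-15* and *oac-34*. Its levels were 6.09, 7.05, 8.84, 4.99 and 8.39 CPM in the wild type. They were 13.8, 14.6, 15, 15 and 18.3 CPM in *sma-3*, and 6.72, 6.01, 5.04, 5.07 and 8.21 CPM in *sma-6*. All *sma-3* libraries lay above all others, and *sma-6* and the wild type overlapped. The gene rose 2.16-fold in *sma-3* (log2 1.11, SE 0.15, edgeR adjusted p = 0.00023), and its log2 value in *sma-6* was -0.19 (SE 0.16, adjusted p = 0.529). It overlaps *clpr-2* on the other strand, with the same limit as for *oac-46*.

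*oac-51* (chromosome IV, 4336801 to 4341306, plus strand) rose in *sma-3* as well. It had 6.75, 10, 16.1, 7.20 and 14.4 CPM in the wild type, 20.2, 20.6, 20.5, 17 and 22.1 CPM in *sma-3*, and 9.94, 15.6, 8.30, 12.2 and 8.74 CPM in *sma-6*. The *sma-3* libraries did not overlap either other group, and wild-type replicates 3 and 5 were the highest of theirs. The log2 fold change was 0.88 (SE 0.21, adjusted p = 0.0107) in *sma-3* and 0.01 (SE 0.21, adjusted p = 0.983) in *sma-6*. Its neighbour *oac-52*, 955 bases away on the other strand, did not pass in either mutant, with log2 values of -0.13 and 0.08.

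*oac-1* (chromosome V, 19550999 to 19555969, minus strand) rose less. The wild type had 15.9, 16.5, 22.5, 17 and 33.6 CPM, *sma-3* had 30.7, 26.3, 32.2, 33 and 32.6 CPM, and *sma-6* had 16.2, 18.1, 22.7, 23.2 and 24.9 CPM. Wild-type replicate 5 lay above every *sma-3* library, and the other wild-type libraries lay below them all. The log2 fold change in *sma-3* was 0.56 (SE 0.17, adjusted p = 0.0356), and without wild-type replicate 5 it was 0.79 (adjusted p = 0.000562). The call was lost, with adjusted p between 0.0556 and 0.0942, when any of wild-type replicates 1 to 4 or *sma-3* replicates 4, 5 or 9 was left out. In *sma-6* the log2 value was 0.00 (adjusted p = 0.995).

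*oac-15* (chromosome V, 16206849 to 16209937, minus strand) was close to the detection limit. It had 1, 11, 6, 4 and 8 counts in the wild type, 13, 9, 22, 16 and 15 in *sma-3*, and 4, 2, 3, 4 and 0 in *sma-6*. As CPM these are 0.0554 to 0.469, 0.526 to 0.875 and 0 to 0.212, so *sma-3* did not overlap the wild type and *sma-6* did. The fitted log2 values were 1.38 (SE 0.39) in *sma-3* and -1.01 (SE 0.52) in *sma-6*. All 5 *sma-3* libraries reached the level required for testing and 0 of the other libraries did, so the minimum fixed the difference and no p is given.

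Among the genes with known mutant phenotypes, *nrf-6* (chromosome II, 8028953 to 8032708, minus strand) fell in *sma-3*. Its levels were 30.2, 29.5, 26.4, 36.8 and 26.8 CPM in the wild type, 20.8, 18.9, 26.4, 27.1 and 22.7 CPM in *sma-3*, and 26.1, 28.5, 27.4, 26.7 and 26.1 CPM in *sma-6*. The *sma-3* and wild-type libraries overlapped. The log2 fold change was -0.37 (SE 0.10, adjusted p = 0.0222) in *sma-3* and -0.15 (adjusted p = 0.425) in *sma-6*. The *sma-3* call was lost when library totals alone scaled the libraries (log2 -0.28, adjusted p = 0.0825), when only those genotypes were fitted (adjusted p = 0.059), and without wild-type replicate 2 or 4 or *sma-3* replicate 2 or 9 (adjusted p from 0.0534 to 0.0647).

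*ndg-4*, whose mutants share the fluoxetine resistance of *nrf-6* mutants, did not pass in either mutant. It had 24.5, 24.4, 19.1, 27.2 and 19.8 CPM in the wild type, 20.0, 20.4, 20.6, 20.0 and 19 CPM in *sma-3*, and 22.5, 22.7, 20.9, 17.8 and 18.6 CPM in *sma-6*. The groups overlapped, with log2 values of -0.20 (SE 0.095, adjusted p = 0.161) and -0.17 (adjusted p = 0.331). *nrf-5*, another gene of the same resistance phenotype, had log2 values of 0.06 and 0.13 and did not pass.

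*rhy-1* did not pass either. Its levels were 14.9, 14.6, 9.62, 10.7 and 7.39 CPM in the wild type, 7.59, 9.71, 7.92, 10.1 and 11.2 CPM in *sma-3*, and 12.9, 10, 13.9, 9.34 and 13.4 CPM in *sma-6*, so that all groups overlapped. The log2 values were -0.31 (SE 0.18, adjusted p = 0.244) and 0.04 (adjusted p = 0.928). It overlaps *W07A12.8* on the other strand, with the same limit. *bus-1* spread widely, from 2.17 to 3.79 CPM in the wild type, 1.17 to 4.18 in *sma-3* and 2.42 to 4.74 in *sma-6*. Its log2 values were -0.06 (SE 0.26, adjusted p = 0.913) and 0.37 (SE 0.25, adjusted p = 0.44).

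In *sma-6* mutants, 5 of the 27 members (18.5%) passed the threshold, where 6.50% of all genes tested passed. All 5 were higher, *oac-58*, *oac-20*, *oac-57*, *oac-6* and *oac-14*, against 3.00% of all genes, and their *sma-6* libraries did not overlap the wild type, which was so for 3.73% of all genes in that direction. No member was lower by edgeR, where 3.51% of all genes were; DESeq2 and limma-voom also called 0 lower, and 0 were lower at an unadjusted p under 0.05. The 22 members that did not pass had log2 values from -1.01 to 0.49, and the median over the 27 was 0.22, against 0.01 over all genes. Only *oac-58* passed in both mutants, and 17 members passed in neither. The shares of all genes that did so were not counted, so nothing is read from these counts. The comparisons share the wild-type libraries.

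**Figure D3:**
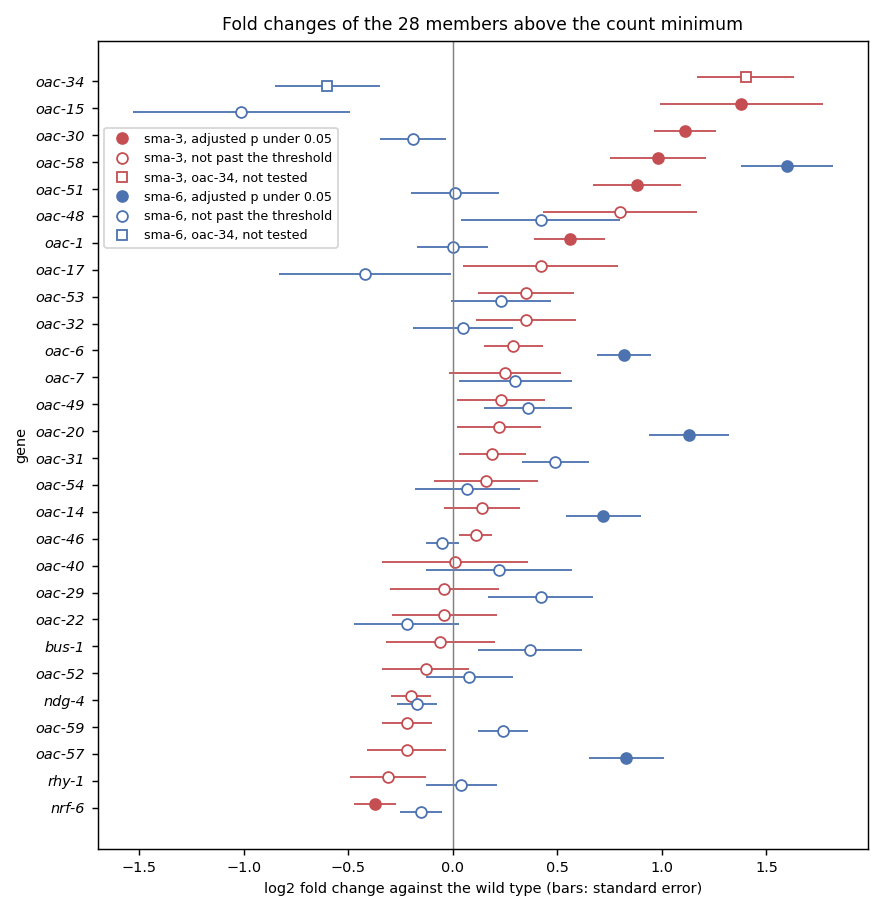
Log2 fold change against the wild type for the 28 members above the count minimum, with standard errors; red is *sma-3*, blue is *sma-6*, filled points passed the threshold and squares are the untested *oac-34*. *oac-34* and *oac-15* lie to the right in *sma-3* and to the left in *sma-6*, whereas *oac-58* lies to the right in both. The filled *sma-3* point of *oac-15* is not read as a call, because the minimum for testing fixed that difference.

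*oac-20* (chromosome V, 15978714 to 15981779, plus strand) had 1.61, 1.92, 1.93, 1.52 and 1.52 CPM in the wild type, 1.46, 2.57, 1.31, 2.53 and 2.25 CPM in *sma-3*, and 2.96, 4.47, 3.72, 4.14 and 3.52 CPM in *sma-6*. Every *sma-6* library was above every other library. The gene rose 2.19-fold in *sma-6* (log2 1.13, SE 0.19, adjusted p = 0.00113), and its log2 value in *sma-3* was 0.22 (adjusted p = 0.493). It overlaps *fbxa-99* on the other strand, so the same limit on strand applies as for *oac-46*.

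*oac-6* (chromosome V, 16302717 to 16306159, plus strand) had 5.70, 5.99, 4.44, 4.93 and 5.4 CPM in the wild type. It had 4.95, 6.49, 6.44, 7.54 and 7.08 CPM in *sma-3* and 8.46, 9.17, 7.80, 12.1 and 9.51 CPM in *sma-6*. The *sma-6* libraries were the 5 highest. The log2 fold change was 0.82 (SE 0.13, adjusted p = 0.000901) in *sma-6* and 0.29 (adjusted p = 0.163) in *sma-3*. The neighbouring *oac-7*, 3.6 kb away on the same strand, had log2 values of 0.30 in *sma-6* and 0.25 in *sma-3* and did not pass.

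*oac-14* (chromosome X, 10139372 to 10142013, minus strand) had 26.3, 30.7, 32.3, 39.6 and 39.8 CPM in the wild type, 24.2, 33.1, 30.7, 57.3 and 39.9 CPM in *sma-3*, and 48.6, 55.2, 48.2, 71.8 and 52.9 CPM in *sma-6*. All *sma-6* libraries were above the wild type, and *sma-3* overlapped both. It rose 1.65-fold in *sma-6* (log2 0.72, SE 0.18, adjusted p = 0.0222), with a log2 value of 0.14 (adjusted p = 0.653) in *sma-3*. The *sma-6* call was lost, with adjusted p between 0.056 and 0.0616, without wild-type replicate 1, 2 or 3 or *sma-6* replicate 4.

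*oac-57*, *oac-58* and *oac-59* lie within a short stretch of chromosome IV on the minus strand, 3.2 kb between *oac-59* and *oac-57* and 472 bases between *oac-57* and *oac-58*. *oac-58* (12308293 to 12311697) had 1.33, 1.34, 0.575, 1.01 and 1.52 CPM in the wild type, 2.73, 2.11, 3.22, 1.77 and 1.69 CPM in *sma-3*, and 3.07, 3.57, 3.87, 3.39 and 3.86 CPM in *sma-6*. Neither mutant overlapped the wild type. The gene rose 1.97-fold in *sma-3* (log2 0.98, SE 0.23, adjusted p = 0.00998) and 3.03-fold in *sma-6* (log2 1.60, SE 0.22, adjusted p = 0.000181).

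*oac-57* (12304462 to 12307820) passed the threshold in *sma-6* and not in *sma-3*. It had 2.10, 2.27, 2.25, 2.78 and 2.52 CPM in the wild type, 1.84, 1.93, 2.19, 2.66 and 1.57 CPM in *sma-3*, and 5.24, 4.56, 2.85, 3.44 and 5.02 CPM in *sma-6*. The *sma-6* libraries were all above the others, with replicate 3 close to the highest wild-type library. The log2 fold change was 0.83 (SE 0.18, adjusted p = 0.00855) in *sma-6* and -0.22 (SE 0.19, adjusted p = 0.476) in *sma-3*. *oac-59* (12293233 to 12301261) ranged from 14.3 to 18.8 CPM in the wild type, 12 to 16.4 in *sma-3* and 14.1 to 22.7 in *sma-6*, and passed in neither mutant (log2 -0.22, adjusted p = 0.255, and log2 0.24, adjusted p = 0.28). It overlaps *C42C1.8* on the other strand, which itself had a log2 value of 1.21 in *sma-6*, so its value carries the same limit.

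The genes around these 3 were also higher in *sma-6*. Of the 10 nearest tested genes, 5 on each side, 7 were called higher around *oac-57*, 6 around *oac-58* and 9 around *oac-59*, with median log2 values of 0.96, 0.86 and 1.00. Neighbours, here and below, include other members where these lie close. The windows of these 3 genes therefore overlap, and *oac-57* and *oac-58* are among the neighbours called higher. The stretch of consecutive tested genes with a log2 value above 0.2, chosen after its values were seen and so given without a test, ran from *nlr-1* to *F19B6.1*, 12170824 to 12336075 (165.3 kb). It held 24 tested genes, and of the 21 that are not members 20 were called higher in *sma-6*, all but *F35G2.5*. Over those 21 genes the log2 values ran from 0.40 to 1.29 with a median of 0.98, and the genes flanking the stretch were at -0.17 (*F20B10.3*) and 0.13 (*best-22*). In *sma-3* the median of the 21 was -0.09, with 1 called higher and 2 lower. Genomic copy number was not measured, and its part in the values of *oac-57* and *oac-58* was not tested. For the other members that rose in *sma-6*, the median log2 of the 10 nearest tested genes was 0.08 for *oac-6*, 0.03 for *oac-14* and -0.05 for *oac-20*, with 2, 1 and 0 of them called higher. Without the 3 members of the stretch, 3 of 24 members (12.5%) were called in *sma-6*, where 6.50% of all genes tested passed.

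**Figure D4:**
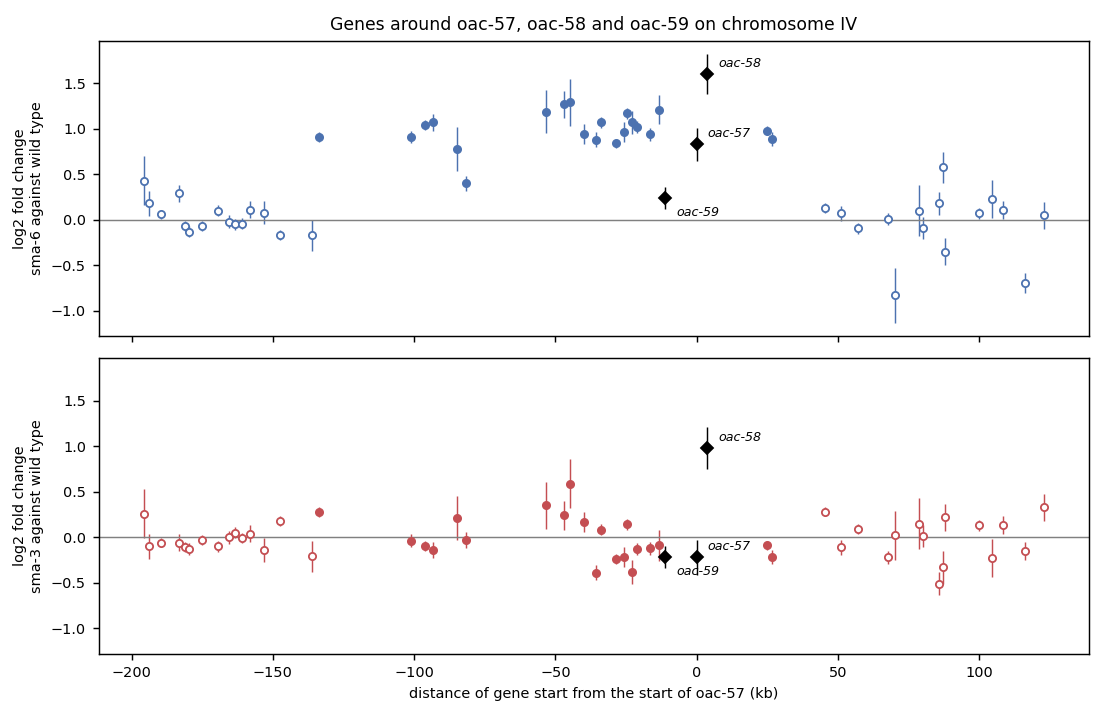
Log2 fold change against the wild type (with standard errors) of tested genes by distance of their start from that of *oac-57* in kb, for *sma-6* above and *sma-3* below; filled points are the genes of the 165.3 kb stretch and black diamonds the 3 members. In *sma-6* the filled points sit between 0.40 and 1.29, with *oac-58* above and *oac-59* below that range.

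Around the members higher in *sma-3*, the 10 nearest tested genes had median log2 values of 0.12 for *oac-30* and -0.04 for *oac-51*. The median was 0.02 for *oac-1*, -0.12 for *oac-58* and 0.11 for *oac-15*, whose own difference the minimum for testing fixed. The neighbours of *oac-34* had a median of -0.11 in *sma-3* mutants and of 0.04 in *sma-6* mutants, and its nearest member, *oac-16*, is 891.9 kb away and below the minimum for testing.

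Between the mutants, the members with the largest differences (log2 of *sma-6* minus *sma-3*) were *oac-15* at -2.39, *oac-34* at -1.99, *oac-30* at -1.31, *oac-57* at 1.05 and *oac-20* at 0.91. Of the 27 members other than *oac-34*, 16 had a positive and 11 a negative difference, with a median of 0.13 against 0.01 over all genes. The family was picked on this contrast, so nothing is read from those counts. As a description of sign alone, among members called against the wild type, *oac-30*, *oac-51* and *oac-1* matched *oac-34*. The called members *nrf-6*, *oac-6*, *oac-14*, *oac-20*, *oac-57* and *oac-58* had the other sign. Calls made on the same libraries favour such signs, so no match to *oac-34* is read from them. *oac-15* also had the sign of *oac-34*, but it reached the minimum for testing only through *sma-3*, which fixed that sign. In *sma-6* against the wild type, *oac-30*, *oac-51* and *oac-1* had log2 values of -0.19, 0.01 and 0.00, and *oac-34* had -0.60.

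The members with a role in the hypoxia pathway were set beside the other genes of that pathway. Of 14 tested genes of the *rhy-1* and HIF-1 list, 2 were lower and 0 higher in *sma-3* (edgeR; 0 higher also at an unadjusted p under 0.05), where 10.2% of all genes were lower and 4.40% higher, with a median log2 value of -0.04 against 0.01 over all genes. *cysl-2*, a cysteine synthase-like gene induced by HIF-1, had 146, 146, 143, 164 and 39.9 CPM in the wild type, 56.6, 78.9, 57.1, 49.2 and 43.5 CPM in *sma-3*, and 138, 132, 164, 101 and 140 CPM in *sma-6*. Wild-type replicate 5 lay below all *sma-3* libraries and the other wild-type libraries above them. Its log2 fold change in *sma-3* was -1.17 (SE 0.26, adjusted p = 0.008). *sqrd-1*, a sulfide quinone oxidoreductase gene, fell from 4.53 ± 0.341 to 3.13 ± 0.311 CPM (SD, n = 5; log2 -0.54, SE 0.12, edgeR adjusted p = 0.00811).

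In *sma-6* the same list held 1 gene that rose and 0 that fell, where 3.00% and 3.51% of all genes did, with 2 lower at an unadjusted p under 0.05 and a median log2 value of 0.06. That gene was *phy-2*, a subunit of the collagen prolyl hydroxylase, which rose from 97.1 ± 1.53 to 204 ± 30.6 CPM (SD, n = 5; log2 1.07, SE 0.091, edgeR adjusted p = 5.04e-07). It lies at 12211097 to 12215987 on chromosome IV, inside the stretch described above. *hif-1* and *egl-9*, the oxygen-sensing hydroxylase gene of the pathway, did not pass in either mutant, with log2 values of 0.06 (*hif-1*) and -0.05 (*egl-9*) in *sma-3* mutants and -0.04 and -0.03 in *sma-6* mutants.

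Of 8 tested genes of the Bus class, whose mutants share the altered surface of *bus-1* mutants, 0 passed in either mutant by edgeR, DESeq2 or limma-voom, with a median log2 value of 0.12 in *sma-3* mutants and of 0.03 in *sma-6* mutants. At an unadjusted p under 0.05 there were 0 in *sma-3* and 1, lower, in *sma-6*. Of all genes tested, 14.6% passed in *sma-3* and 6.50% in *sma-6* by edgeR, so 0 of 8 genes says little about this class. The *acl* and *mboa* genes encode acyltransferases of other families. Of 17 tested, 4 were lower and 0 higher in *sma-3* by edgeR (0 higher also at an unadjusted p under 0.05), where 10.2% of all genes were lower and 4.40% higher, with a median log2 value of -0.16. The 4 were *acl-7* (log2 -0.69, adjusted p = 0.000675), *acl-3* (-0.38, adjusted p = 0.00598), *mboa-6* (-0.27, adjusted p = 0.00486) and *mboa-3* (-0.22, adjusted p = 0.0482). The count was 3 when library totals alone scaled the libraries, where 731 of all genes were lower, against 1394 with TMM. It was also 3 with RLE factors, another scaling, where 1328 of all genes were lower. With a minimum CPM of at least 1 in 5 libraries it was 3 too, where 1252 of 12780 genes were lower. On the 13 libraries that share a replicate number it was 3 with and without a replicate block, where 594 and 695 of all genes were lower. In *sma-6* only *acl-14* passed among the 17, at a log2 value of -0.21 (adjusted p = 0.0316), where 3.51% of all genes were lower. That call was lost when library totals alone scaled the libraries and in the fit to the 13 libraries that share a replicate number with another genotype.

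Wild-type replicate 5 was the highest wild-type library for 11 of the 27 members and the lowest for 4, while over all genes tested it was the highest for 31.4% and the lowest for 30.8%. Without it, 8 of the 27 members (29.6%) passed in *sma-3*, 7 higher and 1 lower, where 22.2% of all genes passed. The 8 include *oac-15*, which with all libraries reached the minimum for testing only through *sma-3*. The added members were *oac-48*, with a log2 value of 1.27 (adjusted p = 0.00945) against 0.80 (adjusted p = 0.15) with all libraries, and *oac-32*, at 0.61 (adjusted p = 0.0449) against 0.35 (adjusted p = 0.338). *oac-48* had 1.94 CPM in wild-type replicate 5 and 0.442 to 0.689 in the other wild-type libraries.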

How the data were processed

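Poly-A RNA of 15 L2 libraries was made into stranded libraries, per the labels. Per the submitters' processing notes, bcl2fastq, STAR 2.5.2b, featureCounts 1.5.2, limma and the build WBcel235 were used; the strand setting of the counting is not given in the sources used here. The authors deposited raw counts per gene, which every result here uses. The deposited CPM equalled each count scaled to its library's total within 5e-04. The authors' deposited log2 fold change, log2 average and p-value columns for *sma-3* were not used.

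Counts were analysed in R 4.3.3 with edgeR 4.0.16: filterByExpr (minimum count 10, total 15), TMM factors and 1 quasi-likelihood fit of genotype to all libraries, with Benjamini-Hochberg adjustment over 13720 genes and a threshold of 0.05; standard errors come from the F statistic. Alternatives were other scaling and filters, DESeq2 1.42.0, limma-voom (limma 3.58.1), the genotypes compared only, a replicate block and leaving out each library. On simulated counts for *sma-3* against the wild type, with 200 genes changed 2-fold, 176 of the 199 tested were recovered (88.4%) among 13633 genes, and 4.86% of calls were false. The simulation held no library that stood apart, as wild-type replicate 5 does, and no changes of other sizes. It therefore does not measure recovery or false calls for these members. Replicate pairs differed by 5.09 to 40 times counting noise (chi-square per degree of freedom, 30 pairs) and all were kept; this does not show that they came from separate RNA.

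Positions and exon lengths came from Ensembl release 115, matched by gene ID for all 41 members. Members and lists were chosen with earlier results of these data known. Named with values were *oac-34*, members past the threshold, the 4 genes with other names, the 5 highest per kb, the 5 largest differences between the mutants, and listed genes past the threshold; the genes bounding the chromosome IV stretch, *F35G2.5*, *C42C1.8*, *oac-7*, *oac-52*, *oac-59*, *oac-48*, *oac-32*, *nrf-5*, *hif-1* and *egl-9* were added after their values were seen. Sequences were not used here.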

Additional observations from a re-analysis of the deposited data

Results flagged for a closer look

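A library was singled out where its gap to the nearest library of its genotype was large for the range of the 5 (Dixon's ratio above 0.71). This picked 8 of 84 gene and genotype groups (9.52%), where chance picks about 1 in 20, and 3 of the 8 were in wild-type replicate 5. In that library *oac-34* had 6.74 CPM against 2.30 to 3.43 in the other wild-type libraries, *oac-29* had 4.34 against 2.53 to 3.04, and *oac-48* had 1.94 against 0.442 to 0.689. *oac-22* had 0.897 CPM in wild-type replicate 2 against 1.52 to 1.67 in the others.

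Among the mutants, *oac-30* had 18.3 CPM in *sma-3* replicate 9 against 13.8 to 15 in the other *sma-3* libraries, and *oac-48* had 2.55 in *sma-3* replicate 2 against 1.02 to 1.43. *oac-34* had 3.75 CPM in *sma-6* replicate 1 against 1.89 to 2.29 in the other *sma-6* libraries, and *oac-54* had 0.662 in *sma-6* replicate 3 against 1.41 to 1.69.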

How the results depend on the processing

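No member's call changed sign under any alternative run. The count in *sma-3* was 6, with *oac-15* included, and ran from 3 to 8 with a library left out. It was 3 without wild-type replicate 2 or 4, where 8.39% and 9.68% of all genes passed. It was 8, again with *oac-15*, without wild-type replicate 5, where 22.2% of all genes passed. The count in *sma-6* was 5 and ran from 4 to 6 with a library left out, where 4.45% to 7% of all genes passed. Without *oac-57*, *oac-58* and *oac-59*, an alternative chosen after seeing the data, the *sma-6* count was 3. *oac-30* and *oac-58* in *sma-3*, and *oac-6*, *oac-20*, *oac-57* and *oac-58* in *sma-6*, were called under every alternative. *oac-14* lost its call under 5 of 24. The difference in *oac-34* between the mutants ran from -2.20 to -1.92 (log2); against the wild type it ran from 1.28 to 1.70 in *sma-3* and from -0.80 to -0.30 in *sma-6* with a library left out. The single *acl* or *mboa* call in *sma-6* was 0 with library totals only. The causes were not tested.

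Same-numbered libraries resembled each other little: over 11 pairs the correlation of deviations ran from -0.143 to 0.145, and 3 of 13 libraries correlated best with their own number. Such values cannot show whether same-numbered libraries shared a culture or a preparation. With the replicate block, on the 13 libraries with a shared number, the *sma-3* count was 2 (*oac-30* and *oac-58*) and the *sma-6* count 5, the hypoxia list had 1 call in *sma-3* and the *acl* and *mboa* list 0 in *sma-6*. The same libraries without the block gave 4, 4, 2 and 0. Over all genes the block gave 806 calls in *sma-3* (5.88%), against 1004 without it (7.32%) and 1997 with all libraries (14.6%). In *sma-6* the block gave 522 calls over all genes (3.81%), against 680 without it (4.96%) and 892 with all libraries (6.50%). Low counts limit *oac-15* and the 13 members below the minimum for testing.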
